A study of Mus musculus with 6 samples.

Results

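The genes described here are the nuclear genes for subunits of respiratory chain complexes I to V and for cytochrome c, in bone marrow-derived macrophages (BMMs) of the mouse. They were chosen by symbol in the deposited expression table: Ndufa, Ndufb, Ndufc, Ndufs and Ndufv genes for complex I, Sdha to Sdhd for complex II, Uqcr genes and Cyc1 for complex III, Cycs for cytochrome c, Cox4 to Cox8 genes for complex IV and Atp5 genes for complex V. The symbols matched 86 of the 24940 genes in the table, and 80 of these had a mean of at least 0.5 RPKM (reads per kilobase of transcript, scaled by the mapped reads of the library) over the 6 libraries. The 80 genes were 37 of complex I, 4 of complex II, 9 of complex III, 1 of cytochrome c, 13 of complex IV and 16 of complex V. The symbol and not present usage decided for 3 genes: Ndufa4, counted with complex I, is now placed in complex IV, Cox7a2l, counted with complex IV, is a factor that joins complexes III and IV into supercomplexes, and Atp5s, counted with complex V, is a coupling factor now called Dmac2l.

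BMMs are macrophages grown from bone marrow with macrophage colony-stimulating factor (M-CSF), and RANKL is the cytokine that turns them into osteoclasts, the multinucleated cells that resorb bone. M-CSF at 30 ng/mL was present for 3 days in all groups: -R with M-CSF alone, +R with RANKL at 100 ng/mL added, and R+LE with RANKL at 100 ng/mL together with a leaf extract (LE) of the shrub Abeliophyllum distichum at 10 µg/mL. Each group had 2 RNA-seq libraries. The labels name C57BL/6 mice of 6 to 8 weeks and 48-well plates, whereas the methods name male ICR mice of 6 to 7 weeks and 6-well plates, so the strain is uncertain. No source used here says whether the 2 libraries of a group came from separate animals or cultures, so the p-values measure only the spread between these libraries, which may be technical, and no vehicle is named for the groups without LE. The question asked of these genes was how RANKL, and LE given with RANKL, changed the transcript level of each complex.

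The respiratory chain sits in the inner mitochondrial membrane. Complex I takes electrons from NADH and complex II from succinate, both pass them to coenzyme Q, complex III carries them on to cytochrome c, complex IV hands them to oxygen, and complex V, the ATP synthase, makes ATP from the proton gradient that complexes I, III and IV build. Osteoclasts are known as cells rich in mitochondria, and the PGC-1β coactivator and the nuclear receptor ERRα are known regulators of mitochondrial biogenesis in them. Most subunits are nuclear genes. The 13 subunits encoded in mitochondrial DNA were looked up by symbol in the deposited expression table and none was found, so they were not analysed here.

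Mapped reads per library, recovered from the RPKM values, ran from 29390147 to 34846322, of which 74.2 to 80.7% lay on genes of the table. In R+LE the share on genes was 80.5% in replicate 1 and 74.2% in replicate 2. The ribosomal RNA gene Rn45s took 6.83 and 4.97% (-R), 10.9 and 11.1% (+R) and 11.2 and 13.5% (R+LE) of the gene reads. The summed levels of 8 osteoclast markers, which include Ctsk and Acp5, were 43.2 and 44.8 RPKM (-R), 2123 and 1866 RPKM (+R) and 380 and 329 RPKM (R+LE). The summed levels of 7 macrophage markers were 1404 and 1513 RPKM (-R), 905 and 796 RPKM (+R) and 857 and 705 RPKM (R+LE). These 7 markers did not move alike. From -R to +R 6 were lower and 1, Itgam, was higher, and from +R to R+LE 4 were higher and 3 lower. Itgam was at 69.6 and 71.4 RPKM (-R), 101 and 79.7 RPKM (+R) and 103 and 106 RPKM (R+LE). Markers of other cells were low: the 8 neutrophil markers summed to 17.5 and 15.6 RPKM in -R and to 0.592 to 2.53 in the other groups, and the 7 stromal and osteoblast markers to 14.8 to 16.2 RPKM in -R and to 8.09 to 13.8 elsewhere. Sums for B cells, T cells, dendritic cells and erythroid cells did not exceed 1.94 RPKM in any library. Cd3e and 4 of the 5 erythroid markers, the globin genes Hbb-b1, Hba-a1 and Hba-a2 among them, were at 0 in every library. The Rn45s share and the macrophage and neutrophil sums thus moved with RANKL. With Rn45s left out of the depth 75 of the 80 genes rose with RANKL, against 70 with the depth as deposited, and the part of the marker sums in the results below was not tested. In bulk libraries, fewer cells of a type and less RNA per cell cannot be told apart. Between the 2 R+LE libraries, all 80 respiratory chain genes were higher in replicate 1, by a median log2 difference of 0.35, against 0.13 over all 11595 genes tested. The like median difference was 0.17 in +R and 0.07 in -R, with 59 and 58 of the 80 genes higher in replicate 1, so results on R+LE are given below with and without each of its libraries.

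Promoter sequence is shown for 4 genes, each at 1 end of the response to RANKL within its own complex, and complex IV is left out. Uqcrh and Cox7a2l, with log2 fold changes of 1.31 and 1.25 with RANKL, and Atp5s, with -0.06, are not shown. Uqcrfs1, Atp5g3 and Sdhd rose most with RANKL in complexes III, V and II, and Ndufa7 had the smallest log2 fold change with RANKL in complex I. Each sequence is the 250 bases before the RefSeq start of the gene in GRCm38.p6, written 5′ to 3′ on the gene's own strand, with matches to the ERR, NRF1, ETS and YY1 elements described below in capitals. They lie at chr13:30545317-30545566 on the minus strand, chr2:73911327-73911576 on the minus strand, chr9:50603850-50604099 on the minus strand and chr17:33824322-33824571 on the plus strand.
Uqcrfs1: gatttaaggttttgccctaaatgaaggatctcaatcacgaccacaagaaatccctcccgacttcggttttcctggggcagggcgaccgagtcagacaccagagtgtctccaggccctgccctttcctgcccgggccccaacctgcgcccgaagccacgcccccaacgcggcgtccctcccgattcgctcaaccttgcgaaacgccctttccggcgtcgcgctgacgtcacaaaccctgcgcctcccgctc
Atp5g3: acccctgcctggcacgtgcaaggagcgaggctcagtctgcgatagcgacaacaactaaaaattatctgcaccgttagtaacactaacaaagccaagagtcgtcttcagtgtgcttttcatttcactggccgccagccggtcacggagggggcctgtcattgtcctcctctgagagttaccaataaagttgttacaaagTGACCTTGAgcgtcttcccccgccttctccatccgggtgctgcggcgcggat
Sdhd: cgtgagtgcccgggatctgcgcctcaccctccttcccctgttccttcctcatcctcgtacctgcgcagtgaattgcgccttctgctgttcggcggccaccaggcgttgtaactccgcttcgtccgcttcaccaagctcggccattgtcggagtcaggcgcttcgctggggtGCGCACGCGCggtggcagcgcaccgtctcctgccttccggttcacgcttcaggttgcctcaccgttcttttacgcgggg
Ndufa7: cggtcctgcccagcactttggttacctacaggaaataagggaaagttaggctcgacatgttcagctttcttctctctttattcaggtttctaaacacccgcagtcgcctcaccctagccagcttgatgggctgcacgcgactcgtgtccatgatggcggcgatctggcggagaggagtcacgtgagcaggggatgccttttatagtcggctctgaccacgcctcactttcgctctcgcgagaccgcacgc
The capitals in Atp5g3 mark the reverse complement of TCAAGGTCA, the ERR response element, starting 52 bases before the start site. The capitals in Sdhd mark the element of the factor NRF1, GCGC and TGCGC with 1 base of any kind between them. It is read on the strand opposite to the one shown, starting 79 bases before the start site. Neither Uqcrfs1 nor Ndufa7 holds a match to these 4 elements. The short motif CCAAT is present in the bases of Atp5g3, and TATAAA, read on the opposite strand, in those of Ndufa7, both left in lower case.

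RANKL raised the level of most of these genes. Between -R and +R, 70 of the 80 genes rose and 0 fell at an adjusted p below 0.05 (limma on log2(RPKM + 0.5), Benjamini-Hochberg over 11595 genes), while 23.9% of all genes tested rose and 21.5% fell. Their median log2 fold change (log2FC, on the scale of RPKM + 0.5 throughout) was 0.76, a fold of 1.69, against 0.05 over all genes tested. A change of at least 2-fold upward was reached by 16 genes, against 6.58% of all genes tested, while 8.92% of all genes and 0 of the 80 fell 2-fold. The 0 genes that fell stayed 0 at an unadjusted p below 0.05, and limma-voom on the recovered reads also found 0. In 77 of the 80 genes the lowest +R library exceeded the highest -R library, as in 40.3% of all genes tested, and the other 3 overlapped. Leaving out any single library left between 47 and 75 genes past the test. The summed level of the 80 genes was 6599 and 6335 RPKM (-R), 11747 and 10677 RPKM (+R) and 8834 and 6918 RPKM (R+LE), which is 0.578 and 0.556% (-R), 1.06 and 0.966% (+R) and 0.776 and 0.615% (R+LE) of the mapped reads.

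**Figure D1:**
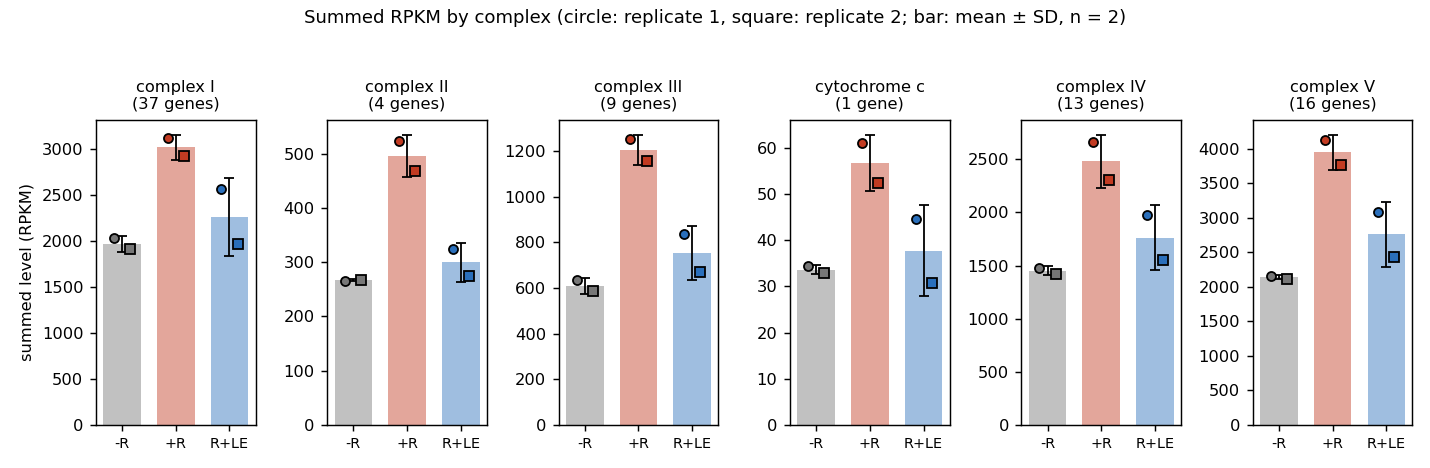
Summed level in RPKM of the genes of each complex (y axis, 1 panel a complex) in the 3 groups; bars are means ± SD of 2 libraries, with replicate 1 as a circle and replicate 2 as a square. Both +R libraries stand above all others in every panel, and the 2 R+LE libraries stand apart from each other, as for complex I at 2559 and 1964 RPKM.

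LE given with RANKL lowered part of the set. Between +R and R+LE, 30 of the 80 genes fell and 0 rose, against 6.86% of all genes tested that fell and 5.19% that rose. The 0 genes that rose stayed 0 at an unadjusted p below 0.05 and in limma-voom, where 51 fell. The log2 fold change was negative in all 80 genes, with a median of -0.48 against -0.05 over all genes tested, and 0 genes passed the test with a 2-fold fall (0 also at an unadjusted p below 0.05 and in limma-voom), against 1.78% of all genes tested. In 73 of the 80 genes both R+LE libraries lay below both +R libraries, as did 29.5% of all genes tested, and 7 overlapped, while 19.5% of all genes and 0 of the 80 were separate upward. The number past the test turned on single libraries: it was 9 and 8 without -R replicate 1 or 2, which enter only the estimate of the spread, 8 and 20 without +R replicate 1 or 2, 69 without R+LE replicate 1 and 13 without R+LE replicate 2. The median moved less, from -0.65 without R+LE replicate 1 to -0.30 without R+LE replicate 2, and 77 of the 80 log2 fold changes were still negative in the latter. A fit of the 2 compared groups alone called 8 genes.

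Against -R, the R+LE libraries were higher in 18 of the 80 genes and lower in 0. The 18 make up 22.5% of the 80 genes, beside 15.3% of all genes tested that were higher and 19.0% that were lower. At an unadjusted p below 0.05, 27 were higher and 1 lower, and limma-voom called 25 higher and 0 lower. A 2-fold difference was reached by 0 of the 80 in either direction, also at an unadjusted p below 0.05 and in limma-voom, against 3.92% of all genes upward and 6.36% downward. The median log2 fold change was 0.27 against -0.01 over all genes tested. The R+LE libraries were separate from and above the -R libraries in 44 genes (31.2% of all genes tested), below them in 2 genes, Ndufa7 and Atp5s (34.3%), and overlapped with them in 34. Without -R replicate 1 or 2 the number higher was 1 in each case, without R+LE replicate 1 it was 5 and without R+LE replicate 2 it was 47. Single R+LE libraries also differed in level: the median log2 difference from the -R mean was 0.46 in replicate 1 and 0.10 in replicate 2. The comparisons share libraries, so their values are given side by side below and their overlap is not used.

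**Figure D2:**
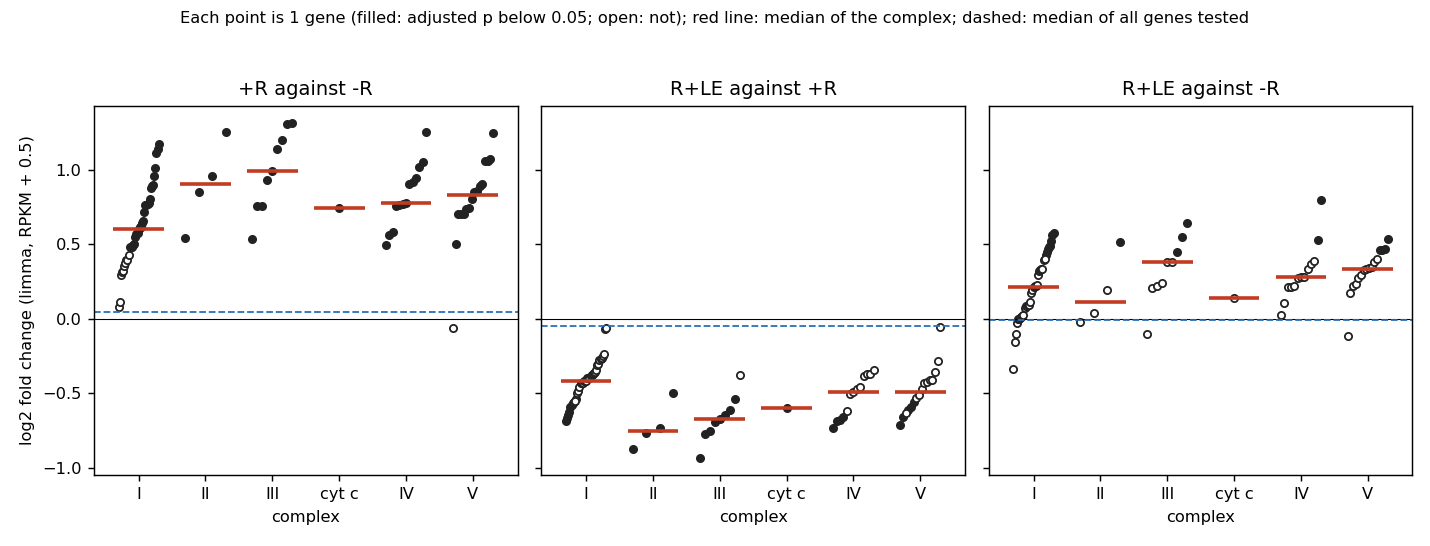
Log2 fold change of each gene (y axis, from RPKM + 0.5) by complex (x axis) in the 3 comparisons; filled points passed an adjusted p below 0.05, red lines are complex medians and the dashed line is the median of all genes tested. All complexes have medians from 0.60 to 0.99 for +R against -R and from -0.75 to -0.41 for R+LE against +R.

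Complex I is the NADH dehydrogenase. With RANKL 28 of its 37 genes rose, 4 of them at least 2-fold, with a median log2 fold change of 0.60, which was 0.39 with the trend with transcript length removed. Its summed level was 2026 and 1908 RPKM (-R), 3116 and 2923 RPKM (+R) and 2559 and 1964 RPKM (R+LE). With LE 8 of the 37 fell, with a median of -0.41, and against -R the R+LE libraries were higher in 8 genes with a median of 0.21. The summed level of R+LE replicate 2, at 1964 RPKM, fell within the -R range, and that of replicate 1 lay between -R and +R. Without R+LE replicate 1 the median of R+LE against -R over the 37 genes turned to -0.025.

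Ndufv1, at chr19:4007499-4012755 of mm10, encodes the subunit that binds the flavin where NADH is oxidised. It was at 35.3 and 31.5 RPKM (-R), 69.1 and 79.2 RPKM (+R) and 53.4 and 40.4 RPKM (R+LE). The 3 groups did not overlap: it rose with RANKL (a log2FC of 1.14 ± 0.16 (SE, adjusted p = 3.59e-05)), fell with LE (a log2FC of -0.67 ± 0.16 (SE, adjusted p = 0.0125)) and stayed above -R (a log2FC of 0.47 ± 0.16 (SE, adjusted p = 0.0347)). Its partner Ndufv2, an iron-sulfur subunit, was at 40.1 and 36.4 RPKM (-R), 79.1 and 76.3 RPKM (+R) and 62.7 and 45.6 RPKM (R+LE), with log2FC values of 1.01 (adjusted p = 0.000118) with RANKL, -0.53 (adjusted p = 0.0450) with LE and 0.48 (adjusted p = 0.0336) for R+LE against -R. Ndufs1, the largest subunit of the peripheral arm with several iron-sulfur clusters, was at 19.3 and 21.6 RPKM (-R), 42.2 and 34.4 RPKM (+R) and 30.1 and 26.4 RPKM (R+LE). Its rise with RANKL passed the test at a log2FC of 0.88 (adjusted p = 0.000203), its difference with LE did not, at a log2FC of -0.43 (adjusted p = 0.0832), and R+LE stayed above -R at a log2FC of 0.45 (adjusted p = 0.0301). Ndufs7, which holds the last iron-sulfur cluster before coenzyme Q, was at 57.6 and 46.5 RPKM (-R), 75.4 and 76.7 RPKM (+R) and 59.6 and 51.3 RPKM (R+LE), and rose with RANKL by a log2FC of 0.55 (adjusted p = 0.00880). Its difference with LE was a log2FC of -0.46 (adjusted p = 0.0723).

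The largest rise of the complex was in Ndufb10, an accessory subunit of the membrane arm at chr17:24722067-24724388, with 57.02 and 59.2 RPKM (-R), 135 and 129 RPKM (+R) and 98.9 and 71.1 RPKM (R+LE). It rose with RANKL (a log2FC of 1.17 ± 0.17 (SE, adjusted p = 3.74e-05)), fell with LE (a log2FC of -0.65 (adjusted p = 0.0185)) and stayed above -R in R+LE (a log2FC of 0.53 (adjusted p = 0.0241)). Ndufb5, also of the membrane arm, was at 33.7 and 28.5 RPKM (-R), 73.8 and 61.9 RPKM (+R) and 55.3 and 38.2 RPKM (R+LE), and rose by a log2FC of 1.11 (adjusted p = 0.000119) with RANKL, whereas its difference with LE, a log2FC of -0.55 (adjusted p = 0.0599), missed the test. Ndufv3, an accessory subunit of the NADH-oxidising end, was at 39.7 and 40.7 RPKM (-R), 68.4 and 58.2 RPKM (+R) and 67.8 and 53.3 RPKM (R+LE). It rose with RANKL by a log2FC of 0.64 (adjusted p = 0.00353), and its difference with LE was a log2FC of -0.07 (adjusted p = 0.865) with a 95% interval of -0.40 to 0.27. R+LE against -R was a log2FC of 0.57 (adjusted p = 0.0106), the highest value of the complex. Ndufa2 had the value with LE nearest to 0 in complex I, a log2FC of -0.06 (adjusted p = 0.876), with 80.2 and 76.9 RPKM (-R), 103 and 97.8 RPKM (+R) and 105 and 88.1 RPKM (R+LE).

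In complex I 9 genes were not past the test with RANKL, Ndufa2, Ndufa3, Ndufa7, Ndufa8, Ndufa11, Ndufa12, Ndufb8, Ndufs5 and Ndufs6, with log2 fold changes from 0.08 to 0.43. All are accessory subunits. The RefSeq entry counted for Ndufa7, as for Ndufa5, is a non-coding transcript of the gene. Ndufa7, at chr17:33824572-33838316, was at 52.6 and 52.3 RPKM (-R), 61.3 and 50.3 RPKM (+R) and 46.1 and 37.4 RPKM (R+LE). Its +R libraries lay on both sides of the -R values, with a log2FC of 0.08 (adjusted p = 0.699) and a 95% interval of -0.25 to 0.41, and both R+LE libraries were below both -R libraries, with a log2FC of -0.33 (adjusted p = 0.115) against -R and a log2FC of -0.41 (adjusted p = 0.110) against +R. Ndufa3 was at 117 and 122 RPKM (-R), 139 and 121 RPKM (+R) and 119 and 96.6 RPKM (R+LE), and its change with RANKL was a log2FC of 0.11 (adjusted p = 0.599). Ndufa4, whose relative Ndufa4l2 is known as a gene induced by low oxygen, was at 109 and 107 RPKM (-R), 242 and 182 RPKM (+R) and 159.9 and 127 RPKM (R+LE), and rose by a log2FC of 0.96 (adjusted p = 0.000421) with RANKL, with a log2FC of -0.56 (adjusted p = 0.0540) for LE.

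**Figure D3:**
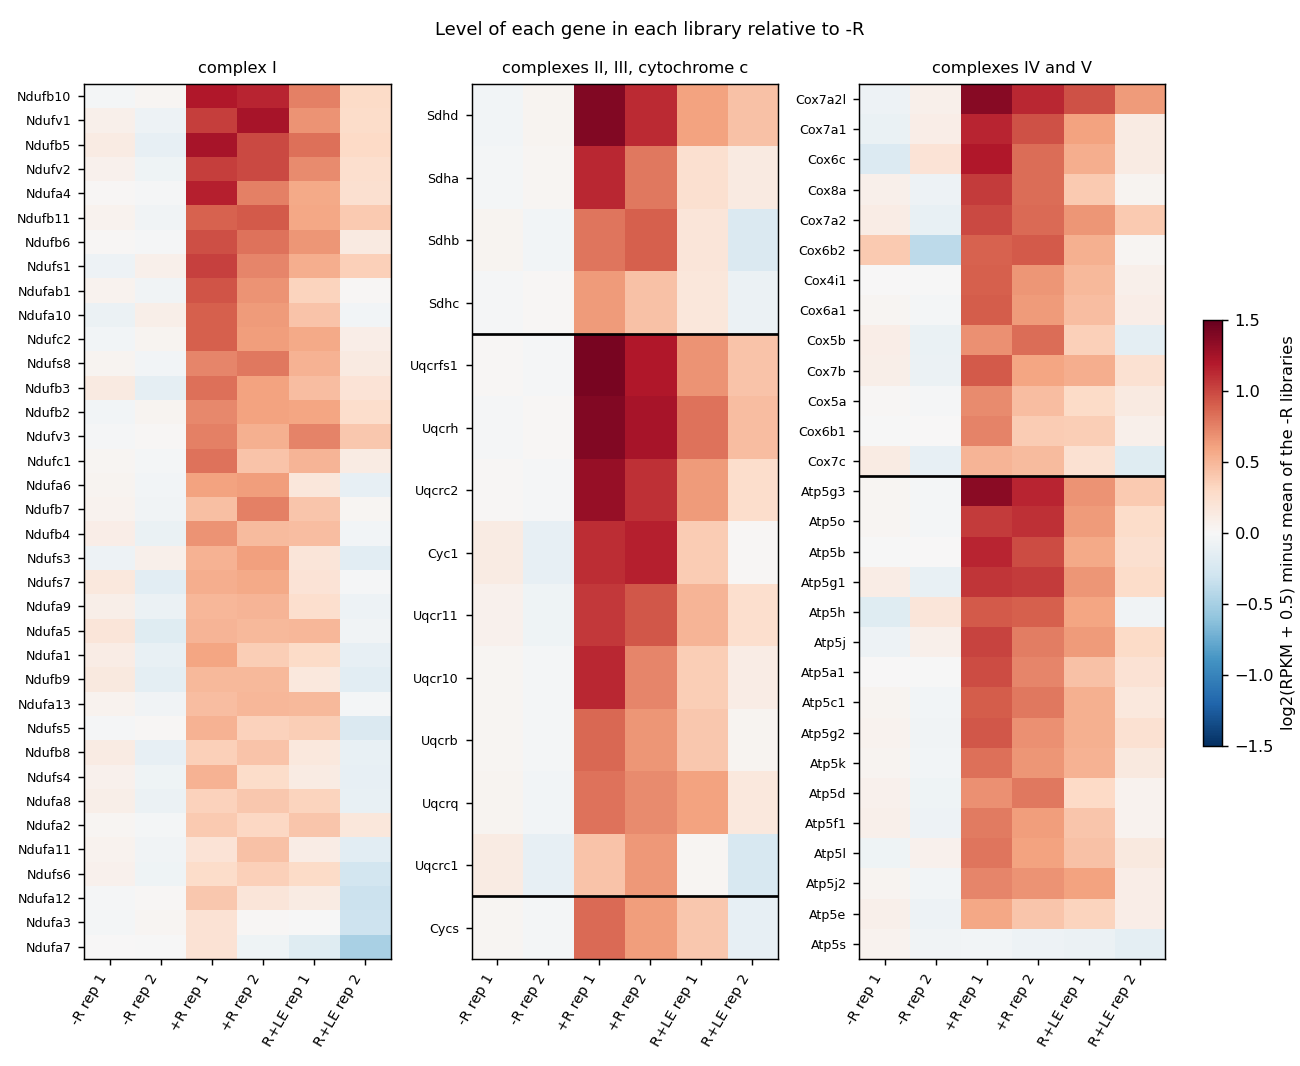
Level of 79 of the 80 genes (y axis, ordered by the change with RANKL within each complex) in each of the 6 libraries (x axis), as log2(RPKM + 0.5) minus the mean of the -R libraries, from blue (lower) to red (higher). The +R columns are red for nearly all genes, R+LE replicate 1 is higher on this scale than replicate 2 in each, and Ndufa3, Ndufa7 and Atp5s show no red in R+LE.

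All 4 genes of complex II, the succinate dehydrogenase that also serves the tricarboxylic acid cycle, rose with RANKL (median log2 fold change 0.91) and all 4 fell with LE (median -0.75). Their summed level was 266 and 268 RPKM (-R), 524 and 468 RPKM (+R) and 325 and 274 RPKM (R+LE). The fold between R+LE and +R of this sum was 0.604, the lowest of the complexes, and the mean of R+LE was 1.12-fold that of -R. Sdha, the flavoprotein that oxidises succinate, was at 55.6 and 57.6 RPKM (-R), 124 and 97.95 RPKM (+R) and 67.2 and 62.2 RPKM (R+LE), with a log2FC of 0.96 ± 0.16 (SE, adjusted p = 0.000130) for RANKL and a log2FC of -0.76 ± 0.16 (SE, adjusted p = 0.00383) for LE. Sdhb, the iron-sulfur subunit, was at 85.5 and 81.2 RPKM (-R), 146 and 156 RPKM (+R) and 94.6 and 71.4 RPKM (R+LE). It rose by a log2FC of 0.85 (adjusted p = 0.000550) and fell by 0.88 on the log2 scale (adjusted p = 0.00212), and the R+LE libraries lay on both sides of -R, with a log2FC of -0.02 (adjusted p = 0.939) and a 95% interval of -0.37 to 0.33. The remaining 2 genes encode membrane anchors. Sdhd, at chr9:50596340-50603849, was at 49.7 and 52.7 RPKM (-R), 135 and 112 RPKM (+R) and 77.9 and 69.4 RPKM (R+LE), and was the only complex II gene to rise 2-fold, by a log2FC of 1.25 (adjusted p = 8.05e-06), and the only one to pass the test for R+LE against -R, with a log2FC of 0.52 (adjusted p = 0.0164). It fell with LE (a log2FC of -0.73 (adjusted p = 0.00467)). Sdhc was at 74.9 and 76.3 RPKM (-R), 118 and 103 RPKM (+R) and 84.9 and 71.3 RPKM (R+LE), with a log2FC of 0.54 (adjusted p = 0.00967) for RANKL and a log2FC of -0.50 (adjusted p = 0.0473) for LE.

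Complex III, which passes electrons from coenzyme Q to cytochrome c, had a median log2FC of 0.99 with RANKL, and all 9 of its genes rose, 4 of them at least 2-fold. With the trend with transcript length removed this median was 0.75, below those of complex II (0.89) and cytochrome c (0.80). With LE 8 of the 9 fell, with a median of -0.67. The summed level was 632 and 585 RPKM (-R), 1252 and 1158 RPKM (+R) and 838 and 670.2 RPKM (R+LE), and R+LE did not overlap with -R. Uqcrfs1, the Rieske iron-sulfur protein at chr13:30540312-30545316, had the largest rise of all 80 genes, from 41.9 and 40.6 RPKM (-R), 112 and 95.8 RPKM (+R) and 65.9 and 55.5 RPKM (R+LE). The 3 groups did not overlap, with a log2FC of 1.32 ± 0.15 (SE, adjusted p = 4.31e-06) for RANKL, a log2FC of -0.77 ± 0.15 (SE, adjusted p = 0.00315) for LE and a log2FC of 0.55 ± 0.15 (SE, adjusted p = 0.0114) for R+LE against -R. Cyc1, cytochrome c1, which gives the electron to cytochrome c, had the largest fall of all 80 genes with LE. It was at 78.9 and 66.1 RPKM (-R), 156 and 163 RPKM (+R) and 94.5 and 73.4 RPKM (R+LE), and after a rise of a log2FC of 1.14 (adjusted p = 4.53e-05) with RANKL it fell by 0.93 on the log2 scale (adjusted p = 0.00141), to a log2FC of 0.20 (adjusted p = 0.370) against -R. Uqcrh, the hinge protein of cytochrome c1, was at 75.7 and 77.2 RPKM (-R), 201 and 181 RPKM (+R) and 135 and 106 RPKM (R+LE), with log2FC values of 1.31 (adjusted p = 9.28e-06), -0.67 (adjusted p = 0.0126) and 0.64 (adjusted p = 0.00651) in the 3 comparisons in the same order.

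Complex III has 2 core proteins, relatives of a processing peptidase. Uqcrc2 was at 45.3 and 44.6 RPKM (-R), 112 and 97.1 RPKM (+R) and 70.5 and 53.9 RPKM (R+LE) and rose by a log2FC of 1.20 (adjusted p = 1.93e-05) with RANKL. Uqcrc1 was at 125 and 105 RPKM (-R), 154 and 179 RPKM (+R) and 117 and 96.5 RPKM (R+LE) and rose by a log2FC of 0.54 (adjusted p = 0.0155), the smallest rise of the complex. Both fell with LE, with log2FC values of -0.75 (adjusted p = 0.00549) for Uqcrc2 and -0.64 (adjusted p = 0.0188) for Uqcrc1, and against -R Uqcrc2 was higher, a log2FC of 0.45 (adjusted p = 0.0412), and Uqcrc1 had a log2FC of -0.10 (adjusted p = 0.670). The small subunits Uqcrb, Uqcrq, Uqcr10 and Uqcr11 rose by log2 fold changes of 0.76 to 0.99. Uqcrq, which sits beside cytochrome b, was the gene of the complex that did not pass the test with LE, at a log2FC of -0.37 (adjusted p = 0.167), with 31.5 and 29.6 RPKM (-R), 53.9 and 49.996 RPKM (+R) and 46.7 and 34.2 RPKM (R+LE). Cytochrome c itself, Cycs, the mobile carrier between complexes III and IV that also acts in apoptosis, was at 34.3 and 32.97 RPKM (-R), 61.1 and 52.4 RPKM (+R) and 44.7 and 30.8 RPKM (R+LE), rose by a log2FC of 0.74 (adjusted p = 0.00245) and fell by 0.60 on the log2 scale with LE (adjusted p = 0.0322). Its R+LE value against -R, a log2FC of 0.14 (adjusted p = 0.567), turned to -0.12 without R+LE replicate 1.

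All 13 genes of complex IV, cytochrome c oxidase, rose with RANKL (median 0.78), and 4 fell with LE, Cox5b, Cox6c, Cox7a1 and Cox8a (median of the complex -0.49). The summed level was 1480.3 and 1421 RPKM (-R), 2661 and 2306 RPKM (+R) and 1978 and 1548 RPKM (R+LE). The core of this enzyme is encoded in mitochondrial DNA, so these are the subunits around it. Cox4i1, which binds the core subunit early in assembly, was at 285.5 and 281 RPKM (-R), 529 and 448 RPKM (+R) and 396 and 298 RPKM (R+LE), with a log2FC of 0.78 (adjusted p = 0.00301) for RANKL and a log2FC of -0.50 (adjusted p = 0.103) for LE. Cox5a was at 119.6 and 117 RPKM (-R), 193 and 163 RPKM (+R) and 144 and 130.1 RPKM (R+LE), with log2FC values of 0.58 (adjusted p = 0.00690) for RANKL and -0.37 (adjusted p = 0.160) for LE. Cox5b, the zinc-binding subunit, was at 169 and 147 RPKM (-R), 254 and 281 RPKM (+R) and 202 and 142 RPKM (R+LE), with log2FC values of 0.76 (adjusted p = 0.00342) for RANKL and -0.66 (adjusted p = 0.0301) for LE. Cox8a had the lowest value with LE, a log2FC of -0.73 (adjusted p = 0.00982), after a rise of a log2FC of 0.94 (adjusted p = 0.000339), with 126 and 113 RPKM (-R), 248 and 213 RPKM (+R) and 156 and 122 RPKM (R+LE). Cox6c rose 2-fold with RANKL, a log2FC of 1.02 (adjusted p = 0.000485), and fell with LE, a log2FC of -0.68 (adjusted p = 0.0303), with 63.6 and 84.4 RPKM (-R), 169 and 131 RPKM (+R) and 108 and 80.02 RPKM (R+LE). Cox7c had the smallest rise of the complex, a log2FC of 0.50 (adjusted p = 0.0278), from 125 and 105 RPKM (-R), 164 and 160.05 RPKM (+R) and 134 and 101 RPKM (R+LE).

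Cox7a2l, at chr17:83501917-83514333, was the gene whose R+LE level stood furthest above -R on the log2 scale. It was at 53.5 and 59.2 RPKM (-R), 146 and 124 RPKM (+R) and 109 and 88.1 RPKM (R+LE), rose with RANKL by a log2FC of 1.25 ± 0.16 (SE, adjusted p = 1.38e-05), differed by a log2FC of -0.46 (adjusted p = 0.0869) with LE, which missed the test, and in R+LE exceeded -R by a log2FC of 0.80 (adjusted p = 0.00131), the highest value of the 80 genes in that comparison. R+LE and -R did not overlap. Its relative Cox7a2, the COX7A form of most tissues, was at 78.4 and 66.9 RPKM (-R), 144 and 131 RPKM (+R) and 115 and 95.6 RPKM (R+LE), with log2FC values of 0.92 (adjusted p = 0.000242), -0.39 (adjusted p = 0.150) and 0.53 (adjusted p = 0.0179) in the 3 comparisons. Cox7a1, the form known from heart and skeletal muscle, was measured at 4.44 and 5.18 RPKM (-R), 11.2 and 9.77 RPKM (+R) and 7.57 and 5.29 RPKM (R+LE). It rose by a log2FC of 1.05 (adjusted p = 0.000109) with RANKL and fell with LE, a log2FC of -0.68 (adjusted p = 0.0133), and made up 5.25 to 7.23% of the COX7A total (Cox7a1 and Cox7a2) in the 6 libraries, with both +R libraries (7.23 and 6.94%) above both R+LE libraries (6.17 and 5.25%) and -R (5.36 and 7.18%) overlapping with both.

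Most other alternative forms were near the floor. The 6 genes under 0.5 RPKM entered no test. Cox6a2, the muscle form of COX6A, was at 0.468 and 0.702 RPKM in -R (9 and 16 reads) and at 0 to 0.149 elsewhere, while Cox6a1 was at 169.6 and 164 RPKM (-R), 313 and 259.8 RPKM (+R) and 229 and 179 RPKM (R+LE). Cox4i2, known from lung, was at 0.473 and 0.279 RPKM in -R (10 and 7 reads) and had 0 to 3 reads in each other library. Ndufa4l2 had 0 to 3 reads a library, Cox8b 0 to 3, Cox7b2 0 to 1 and Cox8c 0, of which the latter pair is known from testis. Just above the limit stood Cox6b2, another form known from testis, at 1.16 and 0.459 RPKM (-R), 1.82 and 1.89 RPKM (+R) and 1.33 and 0.788 RPKM (R+LE) and a mean of 1.24 RPKM, and Atp5s with a mean of 1.26 RPKM, and no gene lay within 1.5-fold of the limit on either side. Cox6b2 rose with RANKL by a log2FC of 0.90 (adjusted p = 0.00867), a call that rests on 17 and 8 reads (-R) and 28 and 29 reads (+R). Its level was under 1% of that of Cox6b1, which was at 204 and 206 RPKM (-R), 343 and 268 RPKM (+R) and 264 and 217 RPKM (R+LE) and rose by a log2FC of 0.56 (adjusted p = 0.0173). Cox6b1 had the value with LE nearest to 0 in complex IV, a log2FC of -0.34 (adjusted p = 0.276). Cox7b2 and Cox8c held no more than 0.0776% of the level of their pairs, Cox7b at 81.2 and 71.7 RPKM (-R), 145 and 116 RPKM (+R) and 112 and 89.6 RPKM (R+LE) and Cox8a.

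In complex V 15 of 16 genes rose with RANKL (median 0.83) and 5 fell with LE, Atp5g3, Atp5b, Atp5o, Atp5g1 and Atp5d (median of the complex -0.49). The summed level was 2159.9 and 2120.4 RPKM (-R), 4133 and 3769.9 RPKM (+R) and 3090.2 and 2430.3 RPKM (R+LE). The catalytic head is built of the α and β subunits around the γ shaft. Atp5b, the catalytic β subunit, was at 309 and 309.7 RPKM (-R), 685 and 611 RPKM (+R) and 458 and 366 RPKM (R+LE), with a log2FC of 1.06 ± 0.18 (SE, adjusted p = 0.000196) for RANKL and a log2FC of -0.66 ± 0.18 (SE, adjusted p = 0.0261) for LE. Atp5a1, the α subunit, was at 201 and 199 RPKM (-R), 394 and 334 RPKM (+R) and 271 and 232 RPKM (R+LE), with log2FC values of 0.86 (adjusted p = 0.000737) for RANKL and -0.53 (adjusted p = 0.0555) for LE. Atp5c1, the γ subunit, was at 103 and 97.6 RPKM (-R), 189 and 174 RPKM (+R) and 145 and 111 RPKM (R+LE), with log2FC values of 0.85 (adjusted p = 0.000619) for RANKL and -0.51 (adjusted p = 0.0595) for LE. Atp5o, the subunit that ties the head to the stalk, was at 147 and 139.8 RPKM (-R), 297 and 307 RPKM (+R) and 224 and 174 RPKM (R+LE), with log2FC values of 1.07 (adjusted p = 9.42e-05), -0.61 (adjusted p = 0.0261) and 0.46 (adjusted p = 0.0464) in the 3 comparisons. Atp5s, the gene of the complex that did not pass the test, was at 1.404 and 1.26 RPKM (-R), 1.28 and 1.24 RPKM (+R) and 1.22 and 1.16 RPKM (R+LE), with a log2FC of -0.06 (adjusted p = 0.815) for RANKL, 95% interval -0.45 to 0.33, and a log2FC of -0.06 (adjusted p = 0.912) for LE.

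Subunit c, whose ring turns in the membrane as protons pass, is made from 3 genes that encode the same mature protein. Atp5g3, at chr2:73908447-73911326, was at 153 and 146 RPKM (-R), 382 and 329 RPKM (+R) and 239 and 196 RPKM (R+LE), with a log2FC of 1.25 ± 0.17 (SE, adjusted p = 2.36e-05) for RANKL, a log2FC of -0.71 ± 0.17 (SE, adjusted p = 0.0112) for LE and a log2FC of 0.53 ± 0.17 (SE, adjusted p = 0.0239) for R+LE against -R. Atp5g1 was at 91.03 and 77.9 RPKM (-R), 178 and 175 RPKM (+R) and 134 and 102 RPKM (R+LE), with log2FC values of 1.06 (adjusted p = 0.000101), -0.59 (adjusted p = 0.0316) and 0.47 (adjusted p = 0.0407) in the same order. Atp5g2 was at 142 and 133 RPKM (-R), 262 and 221 RPKM (+R) and 199.96 and 161 RPKM (R+LE), rose by a log2FC of 0.80 (adjusted p = 0.00122), and differed by a log2FC of -0.42 (adjusted p = 0.136) with LE. Atp5g3 held 40.2 ± 0.915% (-R), 45.9 ± 0.727% (+R) and 42.2 ± 0.648% (R+LE) of their summed RPKM (mean ± SD over n = 2). Atp5g2 held 37.1 ± 0.326, 31.2 ± 1.002 and 35.0 ± 0.112%, and Atp5g1 stayed between 21.7 and 24.1% in all 6 libraries. The shares of Atp5g3 and Atp5g2 did not overlap between the groups. With 2 libraries against 2 an exact permutation test, two-sided, cannot give a p under 0.333, and the shares are given as a description.

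**Figure D4:**
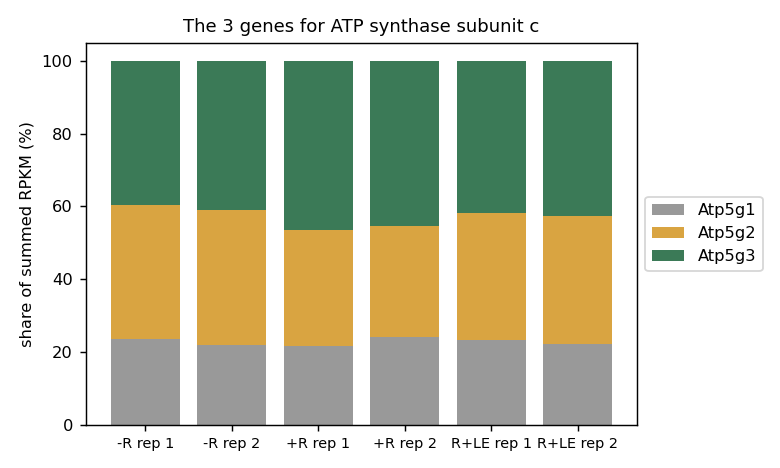
Share of the summed RPKM of the 3 subunit c genes (y axis, percent) held by Atp5g1, Atp5g2 and Atp5g3 in each of the 6 libraries (x axis). Atp5g3 holds 39.6 to 40.9% in -R and 45.4 to 46.4% in +R, with R+LE in between at 41.7 to 42.6%.

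Genes that build or feed the complexes were described from lists of related genes. Of 16 complex I assembly factors, 9 rose and 2 fell with RANKL (median log2 fold change 0.42) and all 16 missed the test with LE. Of 23 complex IV assembly factors, 7 rose with RANKL (median 0.24) and 1, the copper chaperone Cox17, fell with LE. Of the 4 factors of complex II, 2 rose with RANKL and Sdhaf1 fell with LE, and of the 5 of complex III, 2 rose and Uqcc1 fell. The list for complex V held assembly factors, the inhibitor gene Atpif1 and Usmg5. Of its 4 genes, 3 rose with RANKL and Usmg5 fell with LE. The tricarboxylic acid cycle, which feeds the chain with NADH and succinate, had 12 of 13 genes up with RANKL (median 0.92) and 8 down with LE (median -0.59). Idh3a, the catalytic subunit of the NAD-dependent isocitrate dehydrogenase, had its largest rise, a log2FC of 1.53 (adjusted p = 1.35e-06). Among 16 genes of coenzyme Q synthesis and electron entry, 8 rose and 2 fell with RANKL and 4 fell with LE, Pdss1, Coq7, Coq9 and Etfa. Among 11 carriers and porins 7 rose with RANKL. The adenine nucleotide carrier Slc25a5 both rose 2-fold, a log2FC of 1.40 (adjusted p = 9.53e-06), and fell with LE, a log2FC of -0.64 (adjusted p = 0.0247), as 1 of the 11. Among 13 genes that keep and transcribe mitochondrial DNA, 6 rose and 1 fell with RANKL, and Ssbp1 fell with LE. Of all genes tested 23.9% rose and 21.5% fell with RANKL and 6.86% fell with LE, and differences between lists were not tested.

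Of 10 regulators of mitochondrial biogenesis tested, 5 rose with RANKL, beside 23.9% of all genes tested, and 1 fell with LE, beside 6.86%. Ppargc1b, which encodes PGC-1β, was at 0.719 and 0.922 RPKM (-R), 9.29 and 11.3 RPKM (+R) and 2.31 and 3.35 RPKM (R+LE), with a log2FC of 3.03 ± 0.18 (SE, adjusted p = 2.98e-09) for RANKL, a log2FC of -1.71 ± 0.18 (SE, adjusted p = 1.49e-05) for LE and a log2FC of 1.32 ± 0.18 (SE, adjusted p = 4.04e-05) for R+LE against -R. The 3 groups did not overlap, and unlike the respiratory chain genes its lower R+LE library was replicate 1. Esrra, which encodes ERRα, was at 16.5 and 16.7 RPKM (-R), 21.7 and 21.2 RPKM (+R) and 15.3 and 16.8 RPKM (R+LE), with a log2FC of 0.36 (adjusted p = 0.0395) for RANKL and a log2FC of -0.41 (adjusted p = 0.0630) for LE. Tfam, which packs and transcribes mitochondrial DNA, rose by a log2FC of 0.56 (adjusted p = 0.00743) with RANKL and was at a log2FC of -0.29 (adjusted p = 0.294) with LE. Gabpa, an ETS factor, rose by a log2FC of 0.55 (adjusted p = 0.00572), Myc rose by a log2FC of 0.89 (adjusted p = 8.08e-05), and Nrf1 was at a log2FC of 0.03 (adjusted p = 0.887). The PGC-1α gene Ppargc1a did not exceed 0.021 RPKM and was not tested.

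**Figure D5:**
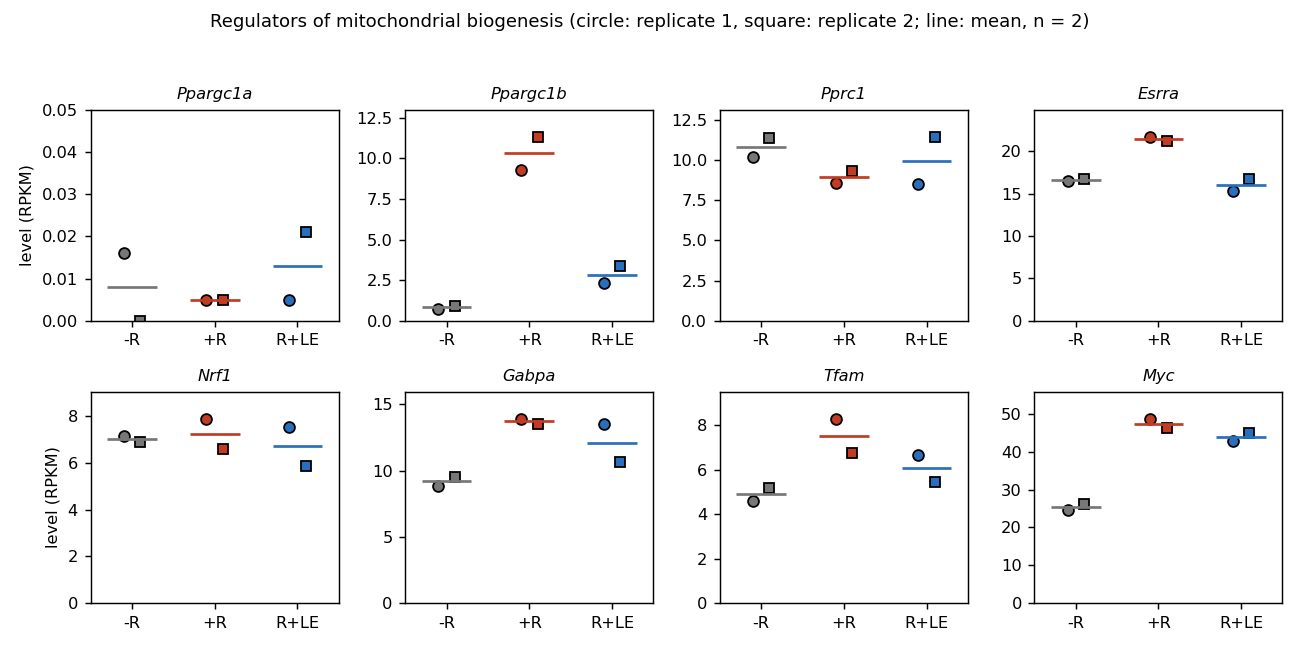
Level in RPKM (y axis, its own scale in each panel) of 8 regulators of mitochondrial biogenesis in the 3 groups, with replicate 1 as a circle, replicate 2 as a square and the mean as a line (n = 2). Ppargc1b has 0.719 and 0.922 RPKM (-R), 9.29 and 11.3 RPKM (+R) and 2.31 and 3.35 RPKM (R+LE), while Nrf1 overlaps in all groups.

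A RefSeq promoter of 300 bases, 250 before to 50 after the start, was matched for 68 of the 80 genes. In 59 of the 68, bases just after the start were found in a transcript of the gene. The start used lay 985 bases from the deposited gene start in Atp5f1 and 538 in Ndufa13. Both strands were searched, and a match is a description of letters and not a site. The NRF1 element was found in 16 of the 68 (23.5%), against 4.60% of 32851 promoters of the same length. The YY1 element AAGATGGC was found in 10 (14.7%, against 2.75% of all), the ETS element CCGGAAGT in 5 (7.35%, against 3.89%) and the ERR element TCAAGGTCA in 2, Sdhd and Atp5g3 (2.94%, against 0.423%). The ERR match in Sdhd lies after the start, outside the bases shown above. Atp5g3 also holds an NRF1 match outside those bases, so both genes with the ERR element also hold the NRF1 element. CCAAT was found in 30 (44.1%, against 37.4%) and TATAAA in 5 (7.35%, against 13.6%). The 16 genes with the NRF1 element had a median log2 fold change with RANKL of 0.68, against 0.76 in the 52 without it, and with LE of -0.46 in both. The 10 with the YY1 element had medians of 0.53 with RANKL and -0.38 with LE, against 0.77 and -0.50 in the 58 without it. The 5 with the ETS element had medians of 0.94 and -0.63, against 0.74 and -0.43 in the 63 without it, and the 2 with the ERR element medians of 1.25 and -0.72, against 0.74 and -0.44 in the 66 without it. The motif names are those of the factors known to bind such letters, and no binding was measured.

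The counts behind these values were large for most genes, from 8 to 39252 reads a library with a median of 1998. Of the 80 genes, 16 share at least 97% identity over at least 100 bases with an annotated pseudogene, such as Cycs, Cox7c and Atp5g2, so that reads may be split between copies. In the 64 without such a copy 56 rose with RANKL (median 0.76), 23 fell with LE (median -0.47) and 15 exceeded -R in the R+LE libraries (median 0.28). Counting ignored strand, and 21 genes overlap an exon of a gene on the opposite strand, while Ndufb8, Ndufb9 and Atp5o overlap an exon of another gene on their own strand, so reads of the partners cannot be told apart there. Across the 80 genes the change with RANKL had a Spearman correlation of 0.203 with transcript length and that with LE one of -0.252. The genes share libraries and depth, so this is a description.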

How the data were processed

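Poly(A) or total RNA selection is not given in the sources used here. The authors sequenced the 6 libraries with 100-base reads, aligned them to mm10 and counted reads in the exons of each RefSeq gene on both strands with HOMER, and deposited RPKM values (the column titles read FPKM) for 24940 genes. The methods name TopHat as the aligner, whereas the submitters' processing notes name HISAT2, together with HOMER and DESeq2. Genes and lists were chosen with earlier results of these data known. Groups were taken from the sample titles. RPKM times transcript length gave whole reads (tolerance 0.05 reads), from which the depth of each library was found. Replicates differed beyond sampling noise. The 11595 genes whose mean reached 0.5 RPKM were tested as log2(RPKM + 0.5) with limma 3.58.1 in R 4.3.3, with empirical Bayes, a variance trend and all 3 groups in the fit, and p-values were adjusted by the Benjamini-Hochberg method over all 11595 genes. Calls were made below an adjusted p of 0.05, and counted again at a change of at least 2-fold. The fit was also run on simulated data. There the noise was drawn for each gene on its own, so shifts shared by the genes of a library were not covered. Named genes were the catalytic and redox subunits, all genes past the test with a 2-fold change, the highest and lowest value of each complex in each comparison, and alternative forms. Other scalings, filters and fits, a fit with replicate number as a block, and fits without each library were run as alternatives. No source used here says whether replicate numbers pair the libraries, and the main fit used no replicate block. The correlations of same-numbered deviations were -0.05 for -R and +R, 0.11 for -R and R+LE and 0.25 for +R and R+LE. Because genes share libraries, these correlations cannot settle the pairing. Promoters and start sites were from RefSeq (GRCm38.p6) and copies from GENCODE M21 transcripts. Counts carry counting error from PCR reads without molecular identifiers. The values of 1 gene of complex I are not reported here, though it is counted in the totals.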

Additional observations from a re-analysis of the deposited data

How the results depend on the processing

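The 70 genes that rose with RANKL numbered 58 to 77 under the other settings and 47 to 75 without single libraries. Their 2-fold rises, 16, stayed between 11 and 23. The 30 genes lower with LE were 2 with no filter on low values, 8 in a fit of the compared groups only, 51 after quantile normalization, 51 by limma-voom and 47 with depth taken from reads on genes other than Rn45s, a setting chosen after seeing the data. Without single libraries they were 8 to 69, and their 2-fold falls were 0 to 2. The 18 genes at which R+LE exceeded -R were 5 with no filter, 33 with libraries centred on their medians, 50 after quantile normalization, 47 with depth from genes other than Rn45s, and 1 to 47 without single libraries. Those lower, 0, were 1 with the trend with transcript length removed, and 0 to 1 without single libraries. Depth from genes other than Rn45s moved the median of all genes in that comparison by 0.11 on the log2 scale. Without R+LE replicate 1 the median of R+LE against -R was reversed for complex I, at -0.025, and for cytochrome c, at -0.12, within leave-one-out ranges of -0.025 to 0.42 and of -0.12 to 0.40. Medians over the 80 genes ranged from 0.60 to 0.84 for RANKL, from -0.65 to -0.30 for LE and from 0.10 to 0.46 for R+LE against -R. With the replicate number as a block, 74 genes were higher with RANKL, 49 lower with LE and 24 higher in R+LE against -R. The causes of these changes were not tested, except that settings without a library rest on fewer libraries. With 2 libraries a group, the spread of each gene is borrowed from all genes. In the median over these 80 genes, the 2 R+LE libraries differed more than those of the other groups.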
